A study of Homo sapiens with 9 samples.

Results

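The 2 CTCF peak lists of CTCF-AID cells were compared, 1 from cells without auxin (0 h) and 1 from cells given auxin for 24 h. CTCF-AID cells derive from HEC-1-B, an established human uterine adenocarcinoma line, and carry CTCF joined to an auxin-inducible degron. Both groups share this tag and were profiled with the same CTCF antibody. The treatment protocol names TiR1-expressing cells and IAA, the auxin, at 500 µM, and the labels give 0 h and 24 h. Whether the line is 1 clone is not given in the sources used here, and CTCF protein was not measured in these files. All peaks of both lists on chromosomes 1 to 22 and X were taken, which gave 30374 regions at 0 h and 13865 at 24 h, out of 354101 in the 9 lists of the series. The series holds ChIP-nexus lists of ZNF143, CTCF and RAD21 in wild-type, ZNF143 knockout and CTCF-AID cells, with 1 library in each group.

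CTCF is a zinc finger protein that binds a long DNA motif and halts cohesin, the ring complex that extrudes chromatin loops, so that loop ends and domain borders often lie at CTCF sites. RAD21 is a subunit of cohesin, and ZNF143 is a zinc finger protein found at many promoters and at many CTCF sites. When tagged CTCF meets auxin and the plant receptor TIR1, it is marked for the proteasome, and CTCF that escapes degradation can stay on part of its sites. In ChIP-nexus, exonuclease digestion of the precipitated fragments stops near the crosslinked protein, which makes peaks narrow and their summits precise. The DNA letters of the sites were not analysed here, so the sites are described by position, width, rank and the other proteins found there.

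With 1 library per group no test between 0 h and 24 h was possible, and nothing below has a replicate check. Intervals in brackets are exact (Clopper-Pearson) 95% binomial intervals, or Newcombe intervals for differences between shares, and cover counting error over peaks only. The libraries differed in depth. The number of reads at each summit and the local background were solved from the authors' values , and the most frequent background came to 12.75 reads per kb at 0 h and 3.875 at 24 h. The median summit count was 34 reads at 0 h and 10 at 24 h, and counts cannot pass 88 and 48. The lower depth and the auxin treatment fall on the same library, so their parts in the shorter 24 h list cannot be told apart.

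A 0 h peak was called kept when a 24 h peak overlapped it by at least 1 bp and lost otherwise. There were 13472 kept and 16902 lost peaks, which is 44.4% and 55.6% of the 0 h list. Only 2 kept peaks overlapped by less than 10 bp, and the median overlap was 72 bp. The shortest 24 h peak was 24 bp and nearly all 24 h peaks lay inside a 0 h peak. Overlaps under 10 bp were thus hardly possible and do not show how well the classes separate. A 24 h peak lay less than 100 bp from 117 lost peaks. The median lost peak lay 51.4 kb from the nearest 24 h peak. The 24 h list lay almost wholly within the 0 h list. Of the 24 h peaks, 99.1% had a 0 h peak, and 99.5% of the overlapping 24 h peaks lay inside its borders from end to end.

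Kept sites were the strong sites of the 0 h list. Strength was ranked within the list by the authors' signal, a fold enrichment over local background, and the list was divided into 10 groups of equal size. The median percentile of signal was 76.3 (quartiles 61.1 and 88.5) for kept peaks and 30.04 (14.9 and 46.4) for lost ones. In rank group 10, the strongest, 97.2% of peaks were kept (96.5 to 97.7). The share fell through 82.8% in group 8, 45.6% in group 6 and 26.3% in group 5 to 10.2% in group 4. The classes overlapped along the whole list, since the highest lost peak stood at percentile 99.8 and the lowest kept peak was the weakest of all by signal. Ranked by −log10 q, the authors' measure of confidence in a peak, the separation was steeper, from 0.724% kept in group 1 (0.454 to 1.09) to 99.2% in group 10 (98.9 to 99.5).

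**Figure D1:**
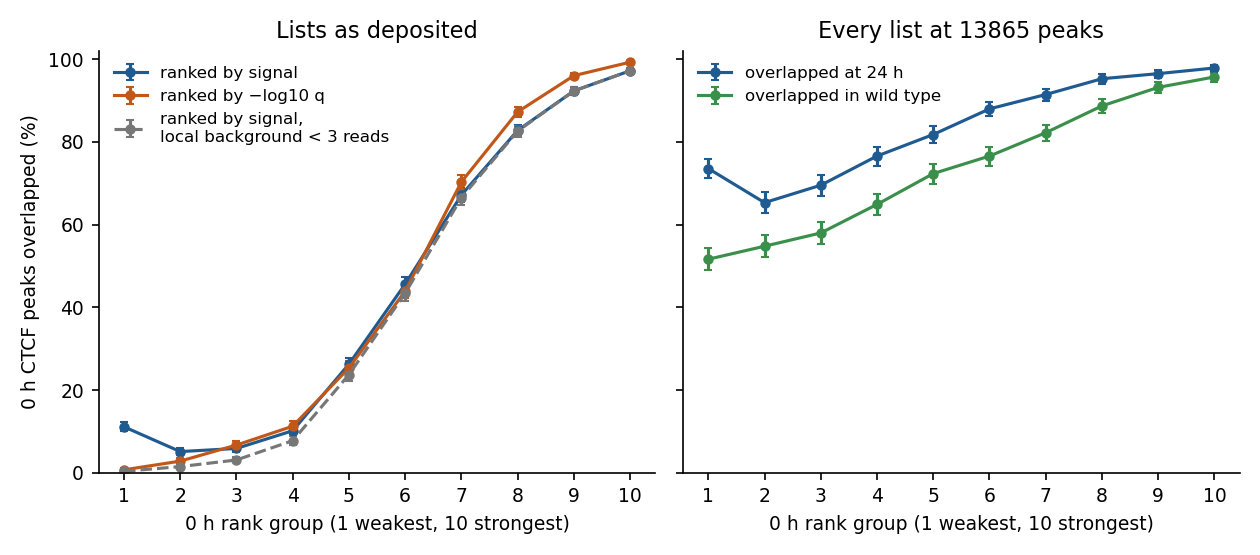
Share of 0 h CTCF peaks overlapped (y, percent) in 10 groups of 0 h rank (x), with 95% exact intervals; left, kept at 24 h with lists as deposited, by signal, by −log10 q and by signal for peaks with a local background under 3 reads; right, every list at 13865 peaks, overlapped at 24 h or in wild type. The curve by signal turns up to 11.1% in the weakest group, the curves without high background and by −log10 q do not, and at equal number the 24 h curve lies above the wild-type curve in all 10 groups.

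The weakest signal group went against this order, with 11.1% kept (10.03 to 12.3) against 5.14% in group 2 (4.38 to 5.98). The kept peaks there were of another kind. Their median summit count was 64 reads on a local background of 13.1 reads, whereas the lost peaks of the group had 11 reads on 0.986. In the whole list 1548 peaks had a local background of 3 reads or more, a limit chosen after the values were seen. Of these, 59.3% were kept (56.8 to 61.8), against 43.6% of the others (42.98 to 44.1). Within group 1 the shares were 38.8% (35.5 to 42.1) and 0.366% (0.158 to 0.719). High-background peaks were narrow, with a median of 85 bp against 171 bp, and crowded: 58.2% had another 0 h peak within 1 kb, against 8.52%. Just 20 windows of 1 Mb held 47.4% of them, whereas the fullest 20 windows held 2.68% of the others. They also overlapped 24 h ZNF143 peaks in 69.3% of cases, against 17.8%. Signal, a fold over local background, is low by its definition where that background is high. Kept sites thus held many strong peaks on ordinary background and a small crowded group of low signal and high summit count.

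Kept 0 h peaks were wider than lost ones, with a median of 226 bp (quartiles 193 and 264) against 114 bp (73 and 160). From 5.28% in the 3237 peaks of 91 to 120 bp, the kept share rose with each width class to 95.8% in the 1734 peaks of 301 bp or more (94.7 to 96.7). In the narrowest class, 44 to 60 bp, it was 10.8%. Median −log10 q rose with width as well, so widths were also compared within groups of −log10 q. In each of the 10 groups kept peaks still had the higher median −log10 q, for example 65.5 against 63.4 in group 9. In rank groups 5 to 10 kept peaks were the wider ones in each group, with medians of 164 against 154 bp in group 5 and 240 against 207.5 bp in group 9. The 22 kept peaks of group 1 were the wider ones too, at 83.5 against 61 bp. In groups 2 to 4 kept peaks were the narrower ones, for example 59 against 101 bp in group 3, where the median local background of kept peaks was 3.53 reads against 0.730. Median summit counts were also higher in kept peaks of groups 5 to 10, by little in group 7 (43 against 42 reads) and more in group 10 (67 against 61 reads).

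**Figure D2:**
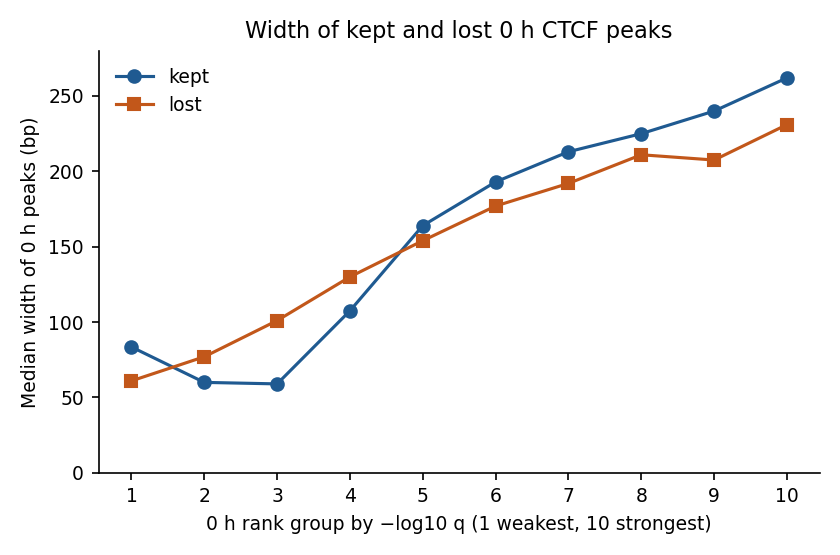
Median width in bp of kept and lost 0 h CTCF peaks (y) in 10 groups of 0 h −log10 q (x); points are medians over peaks of 1 library, without error bars. Kept peaks are the wider ones in group 1 and groups 5 to 10 and the narrower ones in groups 2 to 4.

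The 24 h peaks at these sites were much narrower than the 0 h peaks. At 13238 sites 1 peak of each list overlapped only the other, and there the median width was 225 bp at 0 h and 72 bp at 24 h. The 24 h peak was the narrower at 99.9% of these sites, and the median ratio of widths was 0.332 (quartiles 0.233 and 0.439). The shortest peak of a list, 44 bp at 0 h and 24 bp at 24 h, differed between the lists, and its part in the ratio was not tested. A further 234 kept peaks held 2 or more 24 h peaks, up to 7, and were wide, with a median of 296.5 bp. In these the widest gap between neighbouring 24 h summits had a median of 112 bp (quartiles 78.2 and 196). No 24 h peak overlapped 2 or more 0 h peaks.

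Summits of the paired peaks lay close together. The 24 h summit lay a median 13 bp from the 0 h summit (quartiles 5 and 23), within 10 bp at 42.2% of the sites with 1 peak in each list and within 50 bp at 97.9%. There was no common direction along the chromosome: the signed shift had a median of 0 bp (quartiles -14 and 12), with 47.4% of summits moved up, 49.8% moved down and 2.81% at the same base. By signal, the median distance was 5, 6, 8 and 12 bp in rank groups 1 to 4 and 13 or 14 bp in groups 5 to 10. It was shorter where the 24 h summit held more reads, with a median of 15 bp at 4 to 6 reads and 8 bp at 21 to 48 reads. The median 0 h width also rose over these groups, from 66 bp in group 1 to 186 bp in group 5. Inside the 0 h peak, the summit of kept peaks lay 14 bp from the centre in the median and that of lost peaks 10.5 bp. As a share of the width the order was the other way, 6.45% for kept and 10.1% for lost peaks, so kept peaks were the more centred for their size.

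**Figure D3:**
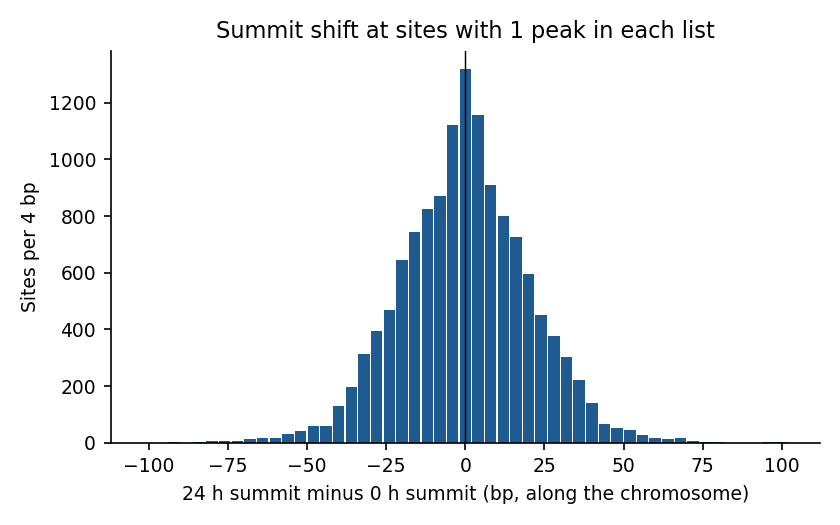
Number of sites (y, per 4 bp) by the position of the 24 h summit minus that of the 0 h summit (x, bp along the chromosome), over 13238 sites with 1 peak in each list; the few longer shifts are not drawn. The distribution is centred on 0 bp and most sites lie within 50 bp.

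The order of kept sites was only loosely alike in the lists. At the 13238 sites the percentile of signal among these sites moved by a median of 19.7 points between 0 h and 24 h (quartiles 8.71 and 36.1). Spearman's rho across sites was 0.396 for signal, 0.522 for width and 0.565 for −log10 q. These describe sites of the same pair of libraries, which are not independent, and the 24 h ranks rest on few reads, with a median of 10 per summit and a lowest count of 4. In rank group 10 the median summit count was 63 reads at 0 h and 11 at 24 h. Divided by each list's most frequent background these were 112 and 118, and the ratio of 24 h to 0 h within sites had a median of 1.10 (quartiles 0.905 and 1.31). In group 5, where 26.3% of peaks were kept, the ratio was 1.29, taken over called sites alone. Scaled instead by background reads per kb, which divides the most frequent background by the shortest peak of the list, the same ratio in group 10 was 0.598 (quartiles 0.494 and 0.713). Whether summit counts at the strongest sites were higher or lower at 24 h than at 0 h thus turned on the scaling. The medians of 63 and 11 reads stand against ceilings of 88 reads at 0 h and 48 at 24 h, so the 0 h counts lay nearer their ceiling. The part of the ceilings in either ratio was not tested. A change shared by sites and background would not show in either ratio, and sites without a 24 h peak have no value in them.

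The 0 h counts were also scaled to the 24 h background, a calculation added after the values were seen. Multiplied by the ratio of the most frequent backgrounds, 0.166, 59.9% of 0 h peaks would reach the lowest −log10 p of the 24 h list, 6.52. Of those, 70.2% were kept (69.5 to 70.9), and of the rest 5.80% (5.39 to 6.23). Multiplied by the ratio of background reads per kb, 0.304, 87.6% would reach it, and 50.6% of those and 0.291% of the rest were kept. Under neither scaling did the limit divide the 0 h peaks into kept and lost. Which scaling suits these libraries was not tested, and the calculation leaves out the scatter of small counts. It does not part depth from auxin, which fall on the same library.

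With both lists cut to 13865 peaks by −log10 q, 83.6% of the 0 h peaks were kept and 16.4%, or 2280 peaks, were lost. This keeps all 24 h peaks and leaves the 0 h peaks with a −log10 q of 37.79 or more, the first left out being at 37.78. The kept and lost peaks of the shorter list differed in the same directions, by less. The median width was 233 bp for kept and 193 bp for lost peaks, and the median signal percentile was 55.9 and 26.4. The summit lay 14.5 bp from the centre in kept peaks and 12.5 bp in lost ones, or 6.23% and 6.70% of the width. The kept share ran from 65.3% in signal group 2 (62.7 to 67.8) to 97.8% in group 10 (96.9 to 98.5), with 73.5% in group 1. Of the 24 h peaks, 85.0% lay in the shortened 0 h list.

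The wild-type CTCF list, cut to the same number, served as a second CTCF library without auxin. It overlapped 73.8% of the shortened 0 h list (73.0 to 74.5), fewer than the 24 h list did. Of the 13865 peaks, 8893 were found in both, 2692 at 24 h only, 1336 in wild type only and 944 in neither. In the full wild-type list of 52982 peaks, all 13865 had a peak. A peak missing from the cut wild-type list was thus one ranked below the cut there, not one absent in wild type. The 24 h list lost no peak by the cut. The 24 h share was the higher in each of the 10 signal groups, with 73.5% against 51.6% in group 1 and 97.8% against 95.7% in group 10. At equal number the 0 h list thus shared more of its sites with the 24 h list of the same line than with the wild-type list. The wild-type sample differs from the 0 h sample in both the tag and the library, which cannot be told apart.

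Kept and lost sites were found on all 23 chromosomes. The kept share was lowest on chromosome X, with 31.0% of 1060 peaks (28.3 to 33.9), and on chromosome 4, with 32.5% of 1226 (29.8 to 35.2). It was highest on chromosome 19, with 50.1% of 1257 peaks (47.3 to 52.9), followed by chromosomes 20 and 17 at 49.8% and 49.3%, whose intervals overlap it. Chromosomes X and 4 also had the lowest median summit counts of the 23, at 25 and 27 reads, against 39 on chromosome 19. Their median percentiles of signal were 40.6 and 43.1, and that of chromosome 21, where 40.1% of peaks were kept, was 42.9. Across the 23 chromosomes rho was 0.938 between the kept share and the median summit count, and 0.755 between the kept share and the number of peaks per Mb, values that all come from the same pair of libraries.

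Most of the spread between chromosomes went with rank. When each peak was given the kept share of its −log10 q rank group, the share so computed ran from 29.3% on chromosome X to 51.4% on chromosome 17, and the measured share differed from it by -2.29 points (chromosome 3) to 4.43 points (chromosome 10). Chromosome 10 also held the largest number of 24 h peaks without a 0 h peak. At 13865 peaks in both lists, the share ranged from 71.8% on chromosome 4 (66.9 to 76.4) to 87.1% on chromosome 19 (84.2 to 89.6). In 482 windows of 5 Mb with at least 30 peaks, the median share was 44.7%, and the extremes were 14.7% and 71.9%. Given the rank groups of their peaks, the extremes would have been 11.9% and 66.8%.

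**Figure D4:**
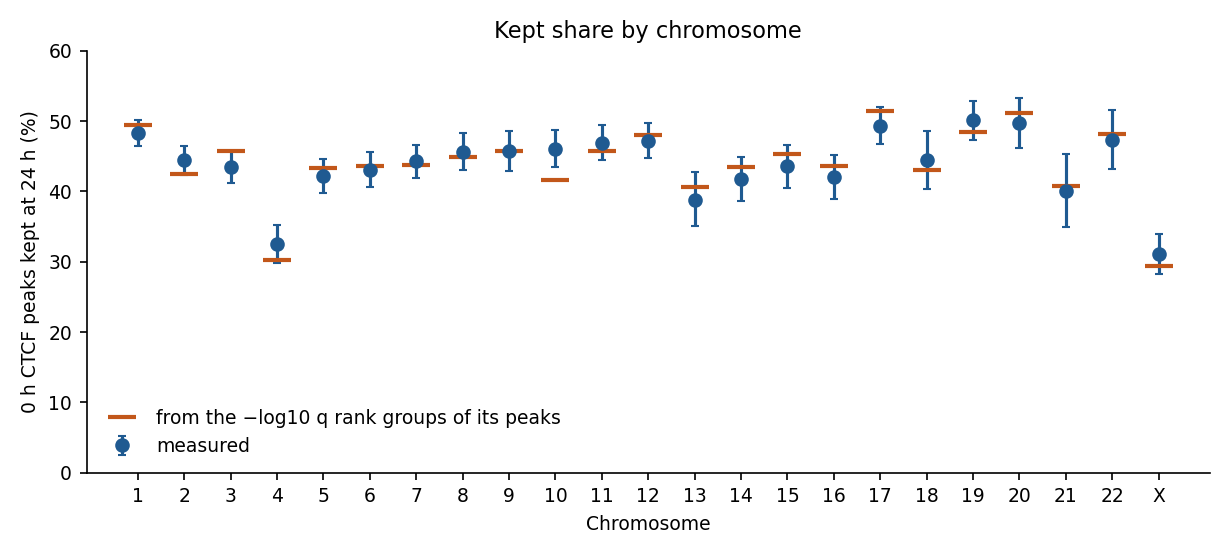
Share of 0 h CTCF peaks kept at 24 h (y, percent) on each chromosome (x), with 95% exact intervals, and the share given by the −log10 q rank groups of the chromosome's peaks. Chromosomes X and 4 lie lowest, at 31.0% and 32.5%, and the given shares follow the measured ones.

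Sites close to another 0 h peak were kept slightly more often. The share was 46.2% for peaks with a neighbour within 10 kb and 43.3% for the others, which differ by 2.92 points (1.76 to 4.08), or by 1.40 points without the peaks of high local background. The share was highest at gaps of 5 to 10 kb, at 49.5%, and lowest for peaks over 300 kb from any other, at 25.3% of 383 peaks. Isolated peaks were weaker, with a median signal percentile of 41.2 beyond 300 kb against 60.3 at 5 to 10 kb, and their rank groups alone would give 29.1%. Peaks under 1 kb apart were kept in 41.5% of cases, more than the 32.1% their rank groups give, and 36.8% without the peaks of high local background.

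Lost sites were weaker also in libraries that had no part in calling them lost. At the same sites, the wild-type CTCF peak had a median signal percentile of 82.3 (quartiles 69.6 and 92.0) for kept and 60.8 (45.7 and 75.7) for lost sites. In the ZNF143 knockout CTCF list the medians were 80.2 and 69.0, and in wild-type RAD21 they were 80.4 and 59.3. Most lost sites were nonetheless called in untreated wild-type cells. A wild-type CTCF peak was found at 92.5% of lost and 99.5% of kept sites, and a wild-type RAD21 peak at 89.9% and 99.5%. Along the wild-type percentile, the kept share rose from 11.9% at percentiles 20 to 30 to 78.5% at 90 to 100. It stood at 31.2% below percentile 10, where the same sites had a median 0 h percentile of 1.31.

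Kept sites lay more often at cohesin sites than lost ones, but no difference was detectable at like −log10 q. The kept share was 46.9% at the 28591 peaks with wild-type RAD21 and 4.15% at the 1783 without it, 42.7 points apart (41.5 to 43.7). Within each of the 10 groups of −log10 q the interval of the difference held 0, with few peaks lacking RAD21 in the upper groups. Within groups of signal it excluded 0 in groups 1 and 2, for example 16.2% against 1.08% in group 1. Cohesin was not profiled in CTCF-AID cells in the samples used here, so these are the cohesin sites of wild-type cells. For wild-type CTCF the shares over the list were 46.2% and 4.59%. Peaks without it were the more often kept ones within −log10 q groups 2 to 6, but only 57, 13 and 1 peaks lacked it in groups 4, 5 and 6. The interval of the difference excluded 0 in groups 2, 3 and 5. In group 3, 12.4% of the 177 peaks without it were kept, against 6.36% of those with it. Peaks without it also had lower signal at like −log10 q, for example a median percentile of 27.0 against 46.6 in group 5.

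CTCF sites that also held ZNF143 were kept more often, at like rank too. Of the 19229 peaks with a 0 h ZNF143 peak, 67.0% were kept (66.3 to 67.6), and of the 11145 without, 5.31% (4.90 to 5.74). Within each of the 10 groups of −log10 q the share was higher with ZNF143, and no interval of the difference held 0. It was 21.0% against 3.68% in group 4, 49.0% against 22.9% in group 6, and 87.9% against 52.5% in group 8, where only 61 peaks lacked ZNF143. With both lists at 13865 peaks, 85.5% with ZNF143 and 40.8% without were kept, 44.6 points apart (40.6 to 48.6). The ZNF143 list of wild-type cells gave the same order and a smaller difference in each of the 10 groups of −log10 q. With it the shares were 13.5% and 4.46% in group 4. In group 8 they were 87.3% and 80.8%, where the interval of the difference held 0 (-4.28 to 25.2) and 26 peaks lacked ZNF143. The 0 h ZNF143 and 0 h CTCF lists come from the same line, and strength can still differ within a rank group. At sites with both, the 0 h ZNF143 peak had a median signal percentile of 66.7 for kept and 34.5 for lost sites. Local background differed too within the low −log10 q groups. In groups 1 to 3 its median was 35.1, 8.21 and 3.53 reads for kept peaks, against 0.717, 0.673 and 0.730 for lost ones. Peaks with a background of 3 reads or more had a 0 h ZNF143 peak in 83.8% of cases, against 62.2% of the others. The part of background in these differences was not tested.

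**Figure D5:**
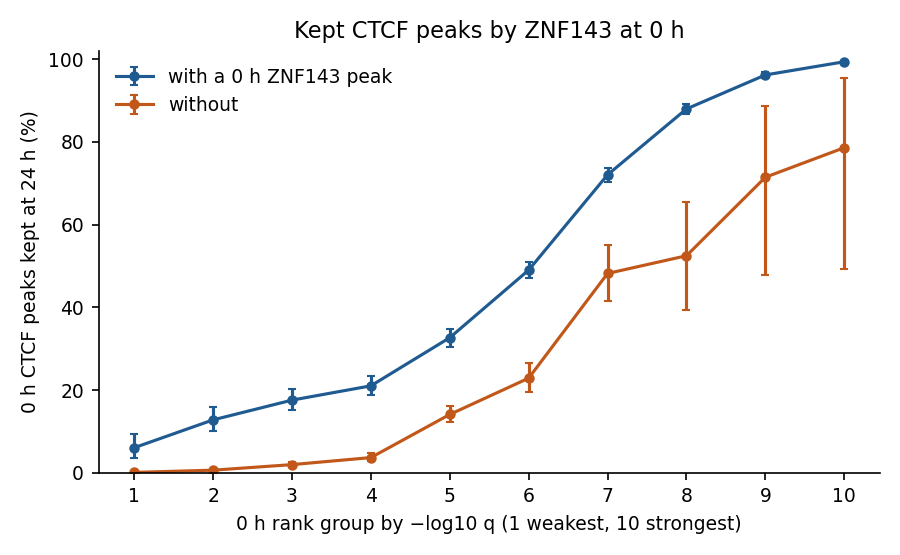
Share of 0 h CTCF peaks kept at 24 h (y, percent) with and without an overlapping 0 h ZNF143 peak, in 10 groups of 0 h −log10 q (x), with 95% exact intervals. The share is higher with ZNF143 in all 10 groups, with 6.07% against 0.110% in group 1 and, for the strongest peaks, 99.3% against 78.6%. In group 1 the median local background is 35.1 reads for kept and 0.717 for lost peaks.

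Nearly all kept sites held both partners. Of the kept sites, 95.2% had both a wild-type RAD21 and a 0 h ZNF143 peak, against 35.1% of lost sites. Sites with RAD21 alone made up 54.8% of the lost and 4.25% of the kept sites, and 5.82% of them were kept. Of the 477 sites with ZNF143 alone 11.5% were kept (8.81 to 14.7), and of 1306 with neither 1.45% (0.878 to 2.26). These classes differ in strength, with median signal percentiles of 68.4, 26.2, 12.6 and 6.94 in the order given. Where ZNF143 was called at both 0 h and 24 h, 85.3% of CTCF peaks were kept, and where it was called at 0 h only, 58.4%. These classes differ in strength as well, with median signal percentiles of 79.9 and 63.7.

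Single sites show the range, with positions on build hg19. The 6 lost peaks of highest 0 h −log10 q, from 79.8 to 83.2, were on chromosomes 6, 9, 13, 22, 5 and 12. The first, chr6:133890088-133890459, had a signal of 26.9 and 71 summit reads at 0 h and no 24 h peak. The next, chr9:43133663-43133936 and chr13:100568787-100569092, had 74 and 68 reads. The others were chr22:41913816-41914045 with 63 reads, chr5:119794069-119794248 with 66 and chr12:103969136-103969355 with 68. All 6 had CTCF and RAD21 peaks in wild-type cells and in the ZNF143 knockout, 5 had a 0 h ZNF143 peak, and 2 a 24 h ZNF143 peak. Loss thus reached a few sites near the top of the list, although 99.2% of the top group were kept.

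The 6 kept sites highest at 24 h were at the ceiling of 88 reads at 0 h and held 41 to 48 reads at 24 h. The strongest, chr3:196625608-196625783, had a −log10 q of 106 at 0 h and 65.6 at 24 h, and its 24 h summit lay 15 bp away. It was followed by chr12:58299095-58299605 (85.1 and 57.7), chr16:57682847-57683479 (80.5 and 56.9) and chr12:104026379-104026777 (90.6 and 55.6). The last were chr19:46898818-46899253 (83.4 and 55.0) and chr15:40566839-40567430 (74.8 and 54.7). Their summits lay 2 to 20 bp apart between the lists. All 6 had ZNF143 at 0 h and 24 h and a peak in every other list. Signal ranked some of them low at 0 h, at percentile 50.4 for the last, where the local background was 4.56 reads.

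Sites in the middle of the 0 h list had nearly the same −log10 q and differed in fate, although their signal ranged from 11.3 to 17.2. The 4 lost peaks just above the middle by −log10 q, 33.75 to 33.76, were chr5:74062268-74062465, chr17:49078463-49078740, chr5:157247776-157247940 and chr5:9361949-9362179, with 32 to 39 reads. The 4 kept peaks just below it, 33.74 to 33.75, were chr7:58008618-58008679 with 46 reads and chr2:40987331-40987487, chr21:25226226-25226425 and chrX:24856840-24857023 with 30 reads each. The 24 h summits of the last 3 held 4, 5 and 6 reads, near the lowest count of the list, and the chr7 summit held 23. With peaks at a −log10 q of at least 5, the chr2 and chr21 sites counted as lost.

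The 4 kept sites of lowest 0 h −log10 q (4.56 to 6.36) were of the high-background kind. Of these, chr10:42389370-42389519, chr10:42388311-42388402 and chr10:42392672-42392748 stood at the ceiling of 88 reads on local backgrounds of 43.7 to 47.2 reads. The fourth, chr16:46428684-46428733, had 72 reads on 32.3. None of the 4 had a peak in either knockout list. Those lists stop at a −log10 q of 5.00, whereas the 0 h list goes down to 3.01, so weak peaks may be missing from them for that reason.

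Some kept sites changed places almost from end to end. Among kept sites, the signal percentile rose most at chr19:48418114-48418224 (3.61 to 98.4), chr19:48423460-48423640 (4.71 to 99.2) and chr20:26305734-26305794 (3.83 to 98.1), with 0 h backgrounds of 3.78 to 7.25 reads. It fell most at chr9:136196320-136196477 (94.8 to 1.47), chr11:3300251-3300556 (96.2 to 2.94) and chr16:48387537-48387765 (98.97 to 6.05), whose 24 h summits held 4 or 5 reads. The chr9 and chr11 sites counted as lost at a −log10 q of at least 5. The 3 that rose had ZNF143 at 0 h and 24 h, and of the 3 that fell 1 had ZNF143 at 0 h and 0 at 24 h. All 3 that rose, and none that fell, had a 0 h background of 3 reads or more. Among all 0 h peaks of such background 83.8% had ZNF143 at 0 h and 69.3% at 24 h, against 62.2% and 17.8% of the others. A link between ZNF143 and the change of rank was not tested. Summits lay furthest apart in 3 wide peaks, by 465 bp at chr7:61968790-61969620, 339 bp at chr10:4857555-4858304 and -301 bp at chr9:21789444-21790026, where the sign gives the direction along the chromosome.

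Only 123 of the 24 h peaks, 0.887%, had no 0 h peak. They were short, with a median of 26 bp against 71 bp for the other 24 h peaks, and stood on a high local background, a median of 1.80 reads against 0.192. The background passed 5 times the list's most frequent value at 91 of the 123 and at 7.07% of the others. Chromosome 10 held 31 of them, or 25.2%, whereas it held 1465 of the 30374 0 h peaks. A 0 h summit lay within 1 kb of 73 of the 123, and of 13741 of the 13742 other 24 h peaks. A wild-type CTCF peak was overlapped by 80, or 65.0%, fewer than the 99.1% of the other 24 h peaks. The 6 of highest −log10 q, 15.8 to 21.9, were chr16:33894378-33894412, chr1:121356574-121356604, chr16:35231969-35232002, chr10:42361453-42361486, chr2:91598774-91598801 and chr2:90377286-90377311. They held 17 to 33 reads, all 6 had a wild-type CTCF peak, and all 6 had ZNF143 at 0 h and 24 h. All 6 also had wild-type RAD21 and ZNF143 peaks, 5 had a knockout CTCF peak and 4 a knockout RAD21 peak. Peaks of every protein profiled were thus called there. Read mapping and repeats at these positions were not tested, so shared calls need not mean shared binding. The peaks seen at 24 h alone were thus few, short and mostly on high background.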

How the data were processed

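ChIP-nexus peak lists of 9 groups, 1 library each, were used, with groups from the sample titles. The authors deposited peaks per sample in narrow-peak layout. The submitters' processing notes name cutadapt 2.10, Bowtie2 2.3.5.1, SAMtools 1.12, MACS2 2.2.7.1, deepTools and hg19. Settings, filters, pooling and controls are not given in the sources used here. The deposited values are a score (10 times −log10 q as a whole number, within 1, and not used further), the signal, read as a ratio (fold enrichment), −log10 p, −log10 q and a summit position. Signal was compared only as rank within a list or at single sites.

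Summit counts and local backgrounds were solved from ratio and −log10 p under a Poisson model with 1 added to both. Whole counts met −log10 p within 0.002 for 100% of peaks. Read depth is not known beyond the background. Shared meant an overlap of 1 bp. For equal number, peaks were ordered by −log10 q. Sites with 1 peak in each list gave shifts and width ratios. Named sites follow a rule: highest lost, highest kept, highest at 24 h alone, lowest kept, around the middle, and largest changes of rank or summit. By the rule, no site was taken from chromosome 8.

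The members, lists and named-site rule were chosen with earlier results of these data known. Motif and gene-position comparisons were planned and not run, as no sequence or annotation of this build was used. Alternatives changed the list size, the overlap, the −log10 q limit and the background limit. The solving of summit counts was tested on simulated data, and the overlap calls against a direct comparison of all peaks on a single chromosome. The code ran under Python 3.11.15 with scipy 1.17.1, pandas 2.3.3, numpy 2.4.6 and, for plots, matplotlib 3.10.9.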

Additional observations from a re-analysis of the deposited data

How the results depend on the processing

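Of 47 alternative values for 14 results, 21 stayed within the 95% interval of the reported value, 25 moved, and 1 changed direction. That was the ratio of summit count per background, 24 h over 0 h, in the strongest signal group, which was 1.10 by the most frequent background and 0.598 by background reads per kb. Intervals are narrow because the lists are long. This scaling and the values without 0 h peaks of high local background were added after the data were seen. No paired analysis was possible because each group had 1 library. No replicate could be left out, for the same reason.

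With equal numbers of peaks, 83.6% of 0 h peaks were kept and 85.0% of 24 h peaks were in the 0 h list. Kept minus lost came to 40 bp for width, 29.5 points for signal percentile and 2 bp for the distance of the summit from the centre. The summit distance between lists was 14 bp, the change of percentile 21.8 points, and the kept share differed by 16.9 points with RAD21 and 44.6 points with ZNF143. No value could be given for wild-type CTCF, which every peak of the shortened list had.

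Reciprocal overlap of 50% gave 6.89% kept and 15.1% of 24 h peaks in the 0 h list, where a 24 h peak must cover 50% of a 0 h peak and the median ratio of widths was 0.332. Summits within 50 bp gave 43.4% and 95.2%, and 60.4 points for ZNF143. The stronger 50% of each list gave 41.6% and 91.5%. At a −log10 q of at least 5 the kept share was 42.2%, the ratio of widths 0.338, and the change of percentile 20.2 points. The differences were then 39.0 points for wild-type CTCF, 40.2 for RAD21 and 59.5 for ZNF143. Without high background the kept share was 43.6%, the difference in percentile 48.1 points and that by neighbours 1.40 points. Why the other values moved was not tested. Of 83 values for 33 named 0 h sites, 76 gave the same call. The 7 others were lost at a −log10 q of at least 5 or with summits within 50 bp. The median 24 h summit held 10 reads, which limits the precision of 24 h ranks.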

Other observations

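After a kept 0 h peak the next peak along the chromosome was kept in 46.5% of cases (45.6 to 47.3), and after a lost one in 42.7% (41.9 to 43.4). The rank groups of those next peaks would give 45.6% and 43.4%. For neighbours under 10 kb apart the shares were 47.1% and 44.7%, where rank groups give 38.6% and 40.7%. For those 100 kb or more apart they were 43.3% and 38.8%, where rank groups give 45.3% and 40.5%. The measured gap was thus about that of the rank groups at long distance, and under 10 kb the rank groups give the other order.

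Outside chromosomes 1 to 22 and X, the 0 h CTCF list held 522 peaks and the 24 h list 153. Of the 522, 24.9% were overlapped at 24 h (21.2 to 28.8), against 44.4% on the chromosomes compared; this difference was not tested.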
